A study of Mus musculus with 6 samples.

Results

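The genes described here are 10 mouse genes for adhesion molecules and surface proteins of blood vessel endothelium: Vcam1, Icam1, Icam2, Selp, Sele, Pecam1, Cdh5, Vwf, Thbd and Esam. They were taken by symbol from the deposited count tables, where all 10 are found among 24421 gene symbols, and 9 of them had enough reads to be tested. The exception was Sele. The study measured total RNA from liver of 7-month-old mice of the Townes sickle cell line by RNA sequencing, and its title names impaired bile secretion and hepatobiliary injury in sickle cell disease. In these mice human globin genes replace the mouse alpha- and beta-globin genes in the germline, so every cell of both groups carries the replacement. Both groups carry the alpha-globin allele Hbatm1(HBA)Tow. The SS group has the sickle beta-globin allele Hbbtm2(HBG1,HBB*)Tow alone. The AS group has that allele together with the normal one, Hbbtm3(HBG1,HBB)Tow, so it is a carrier control and not a sickle-free one. Each group had 3 libraries. The labels give no sex and do not say whether the libraries come from separate animals or from pooled ones, so the p-values reflect spread among the 6 libraries, which may be technical.

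Endothelial adhesion molecules let blood cells stop at the vessel wall. Selectins catch passing leukocytes, VCAM-1 and ICAM-1 then bind leukocyte integrins firmly, and PECAM-1, VE-cadherin and ESAM sit at the contacts between endothelial cells. Von Willebrand factor tethers platelets, and thrombomodulin turns thrombin into an activator of the anticoagulant protein C. In sickle cell disease, adhesion of red cells, leukocytes and platelets to activated endothelium is known as a step of vessel occlusion. Liver sinusoidal endothelium normally makes little of the selectins and of von Willebrand factor.

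The libraries held 6670011 to 13700194 gene reads. Levels below are CPM, counts scaled to a common effective library size, given as mean ± SD over 3 libraries. A gene is called when its adjusted p is under 0.05 in edgeR's quasi-likelihood test (Benjamini-Hochberg, 12622 genes tested). Of all pairs of libraries, AS replicates 2 and 3 were the most similar (chi-square per gene 3.60), still above the value of about 1 that sampling noise gives. All pairs with SS replicate 3 lay at 62.1 to 131.6 per gene and the remaining pairs at 22.3 to 67.1. All 16 general endothelial genes of a marker list (Kdr, Flt1, Tek, Tie1, Eng and others) and 15 of 16 sinusoidal ones passed the filter on low counts, so endothelial RNA was measurable in this tissue. Several shares of records not assigned to a gene did not overlap between the groups. Records outside annotated genes made up 40.7% to 42.2% in AS and 43.0% to 53.9% in SS, highest in SS replicate 1, unaligned ones 3.52% to 3.84% and 4.32% to 5.60%, and those aligned to several places 18.4% to 22.8% and 14.7% to 16.2%. Their part in the differences given here was not tested. Hepatocyte markers summed to 91400 to 134000 CPM in AS and 76020 to 102800 CPM in SS.

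Vcam1 and Vwf showed the highest SS levels relative to AS among the tested genes, and Icam1 and Thbd were also higher in every SS library than in any AS library. By edgeR's quasi-likelihood test none of the 9 tested genes was called, against 0.967% of all genes tested (0.911% higher and 0.0555% lower in SS). At an unadjusted p under 0.05, 3 of 9 were higher in SS (Vcam1, Vwf and Icam1) and 0 lower, against 9.12% and 3.58% of all genes tested. DESeq2 called 2 of 9 higher, Vcam1 and Vwf, and 0 lower, against 2.85% and 0.737% of genes, and limma-voom called 0 of 9, against 0.246%. The fitted value was higher in SS for 8 of 9, against 56.3% of all genes, but for 5 of 9 without SS replicate 3, where Pecam1, Cdh5 and Esam were below 0. The share of all genes fitted higher was not computed without SS replicate 3. The groups did not overlap in 4 of 9 tested genes, all higher in SS, against 12.1% of all genes tested, and in 0 of 9 with lower SS values, against 9.04%. The median fitted log2 difference of the 9 was 0.22, beside 0.08 over all genes tested. Without SS replicate 3 these medians were 0.49 and 0.02. In a piece of whole liver, more cells of a type and more RNA per cell cannot be told apart.

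**Figure D1:**
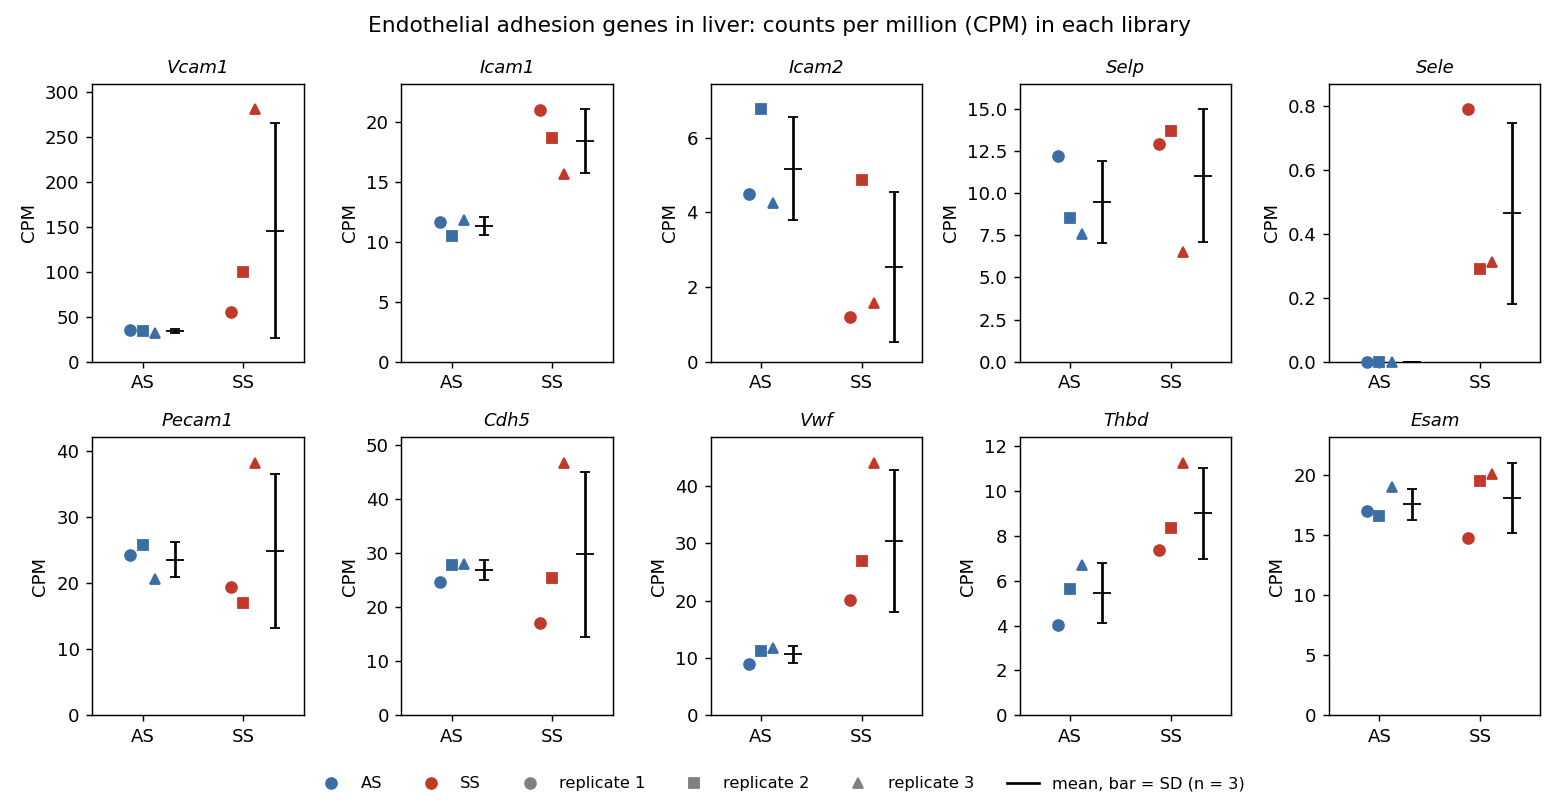
CPM of each of the 10 genes in the 3 AS and 3 SS libraries (linear axis from 0, 1 point per library, with the group mean and SD beside them). Vcam1 and Vwf are higher in all 3 SS libraries, and the highest SS value of both is that of SS replicate 3, at 282 and 44.1 CPM.

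VCAM-1, encoded by Vcam1 on chromosome 3 (116109949 to 116129688, mm10, minus strand), is an immunoglobulin-family protein that binds integrin alpha 4 beta 1 on leukocytes and on young red cells. AS replicates 1, 2 and 3 had 35.8, 34.6 and 32.1 CPM of Vcam1, and SS replicates 1, 2 and 3 had 55.95, 100.3 and 282 CPM. The AS libraries lay close together, while the SS libraries were all above them and far apart from each other. The mean was 34.2 ± 1.88 CPM for AS and 145.9 ± 119.5 CPM for SS (SD, n = 3). The fitted log2 difference was 2.09 (SE 0.496, 95% interval 0.998 to 3.19), which is 4.27-fold, and missed the threshold at an edgeR adjusted p of 0.0925. Without SS replicate 3 it was 1.19, or 2.28-fold (edgeR adjusted p = 0.0738). Vcam1 was called without SS replicate 1 (log2 difference 2.48, edgeR adjusted p = 0.0345), where 0.596% of all genes were called higher. It was also called when AS replicate 1 was dropped along with SS replicate 3 (1.23, edgeR adjusted p = 0.0332), where 2.72% were. The AS libraries left in that fit are replicates 2 and 3, the most similar pair. Without AS replicate 1, 2 or 3 alone Vcam1 was not called (edgeR adjusted p = 0.263, 0.3625 and 0.3435). Those fits called 22, 26 and 38 genes in all, beside 122 with all libraries. With AS replicates 2 and 3 summed Vcam1 was not called either (edgeR adjusted p = 0.348). DESeq2 gave it an adjusted p of 0.00121 and limma-voom 0.194.

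Icam1 (chromosome 9, 21015985 to 21028817, plus strand) encodes the ligand of the beta 2 integrins LFA-1 and Mac-1. It stood at 11.6, 10.5 and 11.9 CPM in AS replicates 1 to 3 and at 20.98, 18.6 and 15.7 CPM in SS replicates 1 to 3. No SS value reached down to the AS range, and in contrast to Vcam1 the lowest SS value was that of SS replicate 3. The log2 difference was 0.70 (SE 0.274, 95% interval 0.0910 to 1.31), or 1.62-fold, with an edgeR adjusted p of 0.329. An antisense gene, Gm47079, covers 11.7% of the exon bases of Icam1, and without a stated strand setting reads from the pair cannot be told apart.

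Icam2 (chromosome 11, 106377656 to 106388075, minus strand), a constitutive ligand of LFA-1 on resting endothelium and platelets, was the only tested gene of the 9 with a lower fitted SS value. Its AS values were 4.49, 6.77 and 4.25 CPM and its SS values 1.19, 4.86 and 1.57 CPM in replicates 1 to 3. The groups overlapped, because SS replicate 2 lay above AS replicates 1 and 3. The log2 difference of -0.99 (SE 0.587, 95% interval -2.29 to 0.31) was not called (edgeR adjusted p = 0.502), and it was -1.89 without SS replicate 2 (edgeR adjusted p = 0.259). These values rest on few reads, 9 to 67 per library.

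The promoter sequences show the 3 genes of the set that could be matched by symbol in the RefSeq promoter table (GRCm38.p6), which are Icam1 and the neighbouring selectin genes Sele and Selp. They are shown because these genes belong to the class induced by inflammatory signals and because Sele was seen in SS libraries alone. Each window runs from 250 bases before to 50 bases after the annotated start, on the plus strand, at chr9:21015690-21015989 for Icam1, chr1:164047984-164048283 for Sele and chr1:164115014-164115313 for Selp. Capitals mark the AP-1 motif TGANTCA and the letters GGNNNTTCC, a loose NF-kB-like form, on either strand; no marked matches overlap.
Icam1: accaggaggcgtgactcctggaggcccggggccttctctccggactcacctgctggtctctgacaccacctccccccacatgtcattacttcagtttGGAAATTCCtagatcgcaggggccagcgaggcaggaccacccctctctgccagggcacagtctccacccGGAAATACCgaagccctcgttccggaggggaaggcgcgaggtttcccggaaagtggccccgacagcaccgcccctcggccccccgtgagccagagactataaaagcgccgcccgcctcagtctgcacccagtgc
Sele: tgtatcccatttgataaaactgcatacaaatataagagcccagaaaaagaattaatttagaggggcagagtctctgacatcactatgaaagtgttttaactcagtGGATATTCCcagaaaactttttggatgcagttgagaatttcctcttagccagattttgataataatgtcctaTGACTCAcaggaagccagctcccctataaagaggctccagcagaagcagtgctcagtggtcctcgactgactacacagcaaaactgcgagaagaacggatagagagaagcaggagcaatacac
Selp: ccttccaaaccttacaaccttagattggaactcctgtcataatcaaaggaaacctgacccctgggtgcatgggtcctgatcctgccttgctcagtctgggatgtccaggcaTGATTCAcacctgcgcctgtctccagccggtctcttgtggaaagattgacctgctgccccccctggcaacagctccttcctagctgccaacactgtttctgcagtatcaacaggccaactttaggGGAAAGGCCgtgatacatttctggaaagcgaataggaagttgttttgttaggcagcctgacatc

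The stricter NF-kB consensus that was searched first matched in none of these windows, and 8.46% of 32851 promoter windows hold it. The looser GGNNNTTCC, chosen after that search, matched in all 3, on the plus strand at position -153 from the start in Icam1 and -145 in Sele, on the minus strand at -84 in Icam1 and -14 in Selp, and 18.5% of all windows hold it. TGANTCA matched in Sele at -73 and in Selp at -139, against 7.81% of all windows. The ETS core GGAAGT, on either strand, matched in Selp alone, 21 bases into the transcript, against 23.8% of all windows, and is left in lower case. These are matches of letters and say nothing of binding.

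Selectins are the molecules of leukocyte rolling. Sele (chromosome 1, 164048234 to 164057677, plus strand) encodes E-selectin, which endothelium makes after inflammatory stimulation. It had 0 reads in all 3 AS libraries and 6, 4 and 4 reads in SS replicates 1 to 3, or 0.792, 0.290 and 0.313 CPM. A count of 0 was taken to allow up to 3 reads over the AS group (0.111 CPM). Pooled Sele in SS (0.410 CPM) was 3.71 times this limit. The limit covers counting error of the AS group only. Counting error of the few SS reads is left out, so 3.71 is not a lower limit of the difference. An exact permutation test over the 6 libraries gave p = 0.100 (two-sided), the smallest p that 3 libraries against 3 can give, and with no filter on low counts Sele had an edgeR adjusted p of 0.421.

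Selp (chromosome 1, 164115264 to 164150026, plus strand) encodes P-selectin, which is stored in Weibel-Palade bodies of endothelium and in platelet granules. It had 12.2, 8.54 and 7.61 CPM in AS replicates 1 to 3 and 12.9, 13.7 and 6.50 CPM in SS replicates 1 to 3. SS replicates 1 and 2 held the highest values and SS replicate 3 the lowest of all 6, so the groups overlapped. The log2 difference was 0.22 (SE 0.376, 95% interval -0.61 to 1.06, edgeR adjusted p = 0.826). Antisense and noncoding genes cover part of its exons, Gm16548 9.93% and Gm16587 4.21%.

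The 3 junction proteins gave no call, and their group means differed little. Pecam1 (chromosome 11, 106654217 to 106750628, minus strand), which encodes the contact protein CD31, had 24.3, 25.8 and 20.6 CPM in AS replicates 1 to 3 and 19.4, 17.0 and 38.3 CPM in SS replicates 1 to 3. SS replicates 1 and 2 lay below every AS library and SS replicate 3 above every AS library. The log2 difference of Pecam1 was 0.08 (95% interval -0.66 to 0.83, edgeR adjusted p = 0.935) and -0.38 without SS replicate 3.

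Cdh5 (chromosome 8, 104101625 to 104144511, plus strand) encodes VE-cadherin, the adherens junction cadherin of endothelium. Its values were 24.7, 27.7 and 27.97 CPM in AS and 17.2, 25.3 and 46.7 CPM in SS replicates 1 to 3. As with Pecam1, SS replicate 3 stood highest and SS replicate 1 below the AS range. The log2 difference was 0.15 (95% interval -0.62 to 0.93, edgeR adjusted p = 0.873) and -0.34 without SS replicate 3. Esam (chromosome 9, 37528078 to 37538319, plus strand), a tight junction protein of endothelium and platelets, varied least of the 9, with 16.6 to 19.1 CPM in AS and 14.8 to 20.1 CPM in SS. Its log2 difference was 0.05 (95% interval -0.54 to 0.64, edgeR adjusted p = 0.956) and -0.04 without SS replicate 3.

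Vwf (chromosome 6, 125546774 to 125686679, plus strand) encodes von Willebrand factor, made by endothelium of larger vessels and by megakaryocytes. AS replicates 1 to 3 had 8.98, 11.3 and 11.8 CPM and SS replicates 1 to 3 had 20.1, 26.98 and 44.1 CPM. Every SS library was above every AS library, and SS replicate 3 was again the highest. The mean was 10.7 ± 1.49 CPM for AS and 30.4 ± 12.4 CPM for SS (SD, n = 3), with a log2 difference of 1.51 (SE 0.336, 95% interval 0.77 to 2.25), or 2.85-fold. The edgeR adjusted p was 0.0752, the limma-voom adjusted p 0.137 and the DESeq2 adjusted p 0.00466. With each library left out in turn the log2 difference of Vwf ran from 1.13 (without SS replicate 3) to 1.73, and its edgeR adjusted p from 0.0616 to 0.281, so it was called in 0 of these 6 fits. With no filter on low counts Vwf was called (edgeR adjusted p = 0.0236), as were 1.01% of genes in the higher direction.

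Thbd (chromosome 2, 148404466 to 148408188, minus strand), a gene with a single exon, encodes thrombomodulin. It had 4.03, 5.64 and 6.71 CPM in AS replicates 1 to 3 and 7.39, 8.34 and 11.3 CPM in SS replicates 1 to 3. The groups did not overlap, although AS replicate 3 and SS replicate 1 were near each other. The log2 difference of 0.72 (SE 0.367, 95% interval -0.09 to 1.53), or 1.65-fold, was not called (edgeR adjusted p = 0.443).

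**Figure D2:**
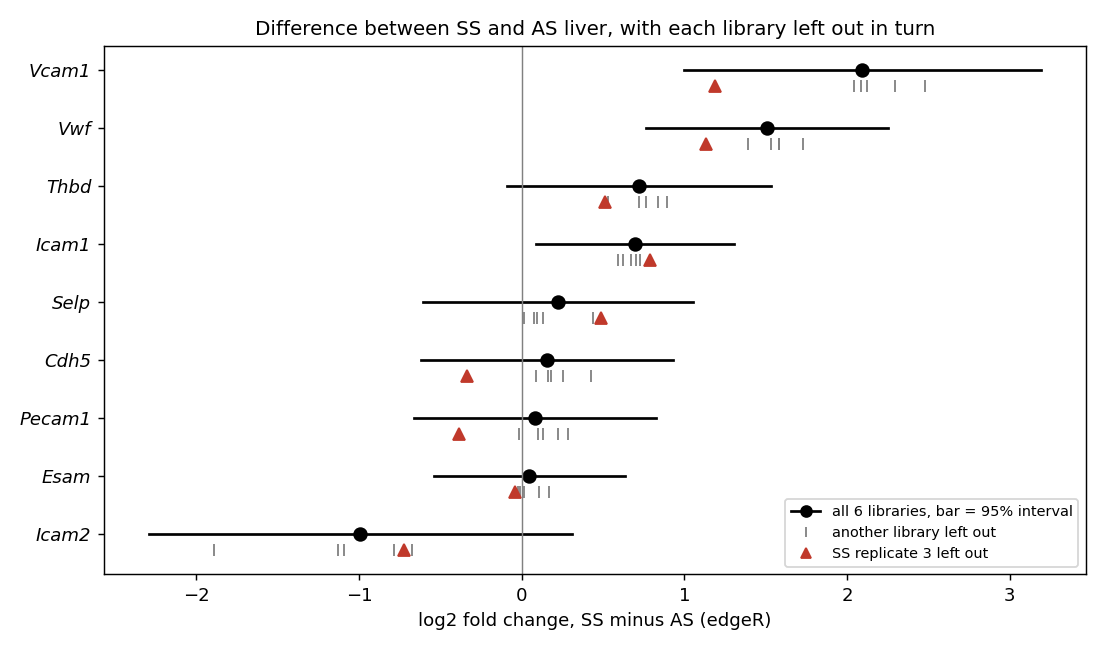
Fitted log2 difference between SS and AS of the 9 tested genes (black point, bar for the 95% interval) and the same with each library left out in turn (grey ticks, red triangle for SS replicate 3). Without SS replicate 3, Vcam1 falls from 2.09 to 1.19 and Pecam1 and Cdh5 change sign.

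Levels can be compared between genes only per length, so counts were also divided by exon length and scaled to the same total in each library (TPM). Unlike CPM, TPM were not scaled to effective library sizes. They serve to order genes within a group and not to compare AS with SS. Esam, for example, averaged 12.9 TPM in AS and 17.9 TPM in SS, but 17.6 and 18.1 CPM. In AS liver the order of mean TPM was Cdh5 (13.5 ± 2.35), Esam (12.9 ± 2.21), Vcam1 (8.09 ± 0.539), Pecam1 (7.93 ± 0.899), Icam2 (5.73 ± 1.73), Icam1 (5.47 ± 0.713), Selp (4.42 ± 0.607), Thbd (3.14 ± 1.08), Vwf (1.41 ± 0.341) and Sele, at 0 reads. Neighbours in this order had overlapping ranges except Esam and Vcam1, Thbd and Vwf, and Vwf and Sele. In SS liver Vcam1 stood first, at 51.1 ± 51.6 TPM, followed by Cdh5 (21.1 ± 15.3), Esam (17.9 ± 5.77), Pecam1 (11.9 ± 8.20), Icam1 (11.7 ± 1.38), Thbd (6.98 ± 3.07), Selp (6.67 ± 1.35), Vwf (5.58 ± 3.46), Icam2 (3.49 ± 2.27) and Sele (0.437 ± 0.240). There every pair of neighbours overlapped except Icam2 and Sele. The SD of Vcam1 in SS is as large as its mean, since its TPM were 16.3, 26.6 and 110.4 in replicates 1 to 3.

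The general endothelial genes Pecam1 and Cdh5 give a base within each library against which the other genes can be set. This base also moved between libraries. Relative to their own means, Pecam1 and Cdh5 were at -0.27 and -0.65 in SS replicate 1 and at 0.71 and 0.79 in SS replicate 3 (log2). The values below therefore carry the shifts of the base too. On the log2 CPM scale, Vcam1 minus the mean of Pecam1 and Cdh5 was 0.55, 0.37 and 0.42 in AS replicates 1 to 3 and 1.61, 2.26 and 2.73 in SS replicates 1 to 3. For Vwf the same quantity was -1.43, -1.23 and -1.02 in AS and 0.14, 0.38 and 0.06 in SS. The SS libraries, which spread widely in the CPM of Vwf, lay within an SD of 0.165 of each other on this scale. Both genes were higher in every SS library than in any AS library, by a mean of 1.75 for Vcam1 and 1.42 for Vwf. The share of all genes that separate the groups on this scale was not computed. The other 5 genes overlapped between groups. In SS replicate 3, Icam1 lay below the AS range and Thbd within it, while SS replicates 1 and 2 were above all AS libraries in both genes.

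**Figure D3:**
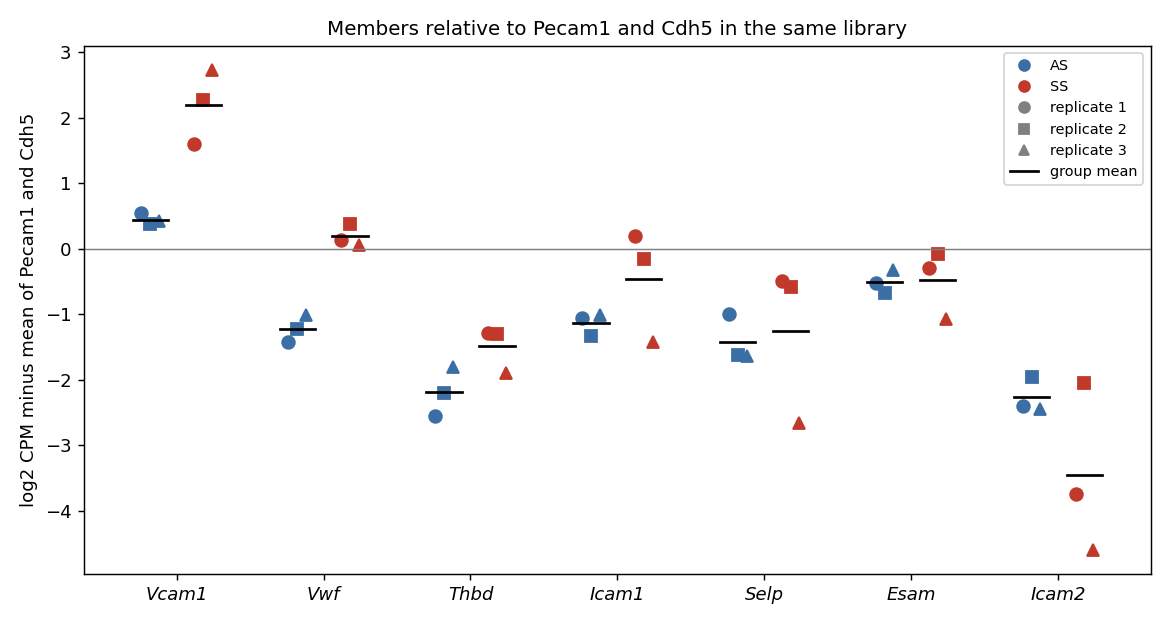
Each gene's log2 CPM minus the mean log2 CPM of Pecam1 and Cdh5 in the same library (points by library, bar for the group mean). Vcam1 and Vwf separate the groups, with SS means of 2.20 and 0.19 against AS means of 0.45 and -1.22, and the other genes overlap. No share over all genes was computed on this scale.

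The 9 genes did not follow a single pattern over the libraries. Likeness was measured as the root-mean-square difference of log2 CPM over the 6 libraries after each gene was centred on its own mean, so that 0 is the same pattern. Pecam1 and Cdh5 were the most alike (0.253), followed by Cdh5 and Esam (0.316), and Vcam1 was closest to Vwf (0.421). The least alike were Vcam1 and Icam2, at 1.73. SS replicate 3 was the highest SS library in 6 of the 9 genes, against 38.9% of all genes tested, and in Icam1 and Selp it was the lowest.

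**Figure D4:**
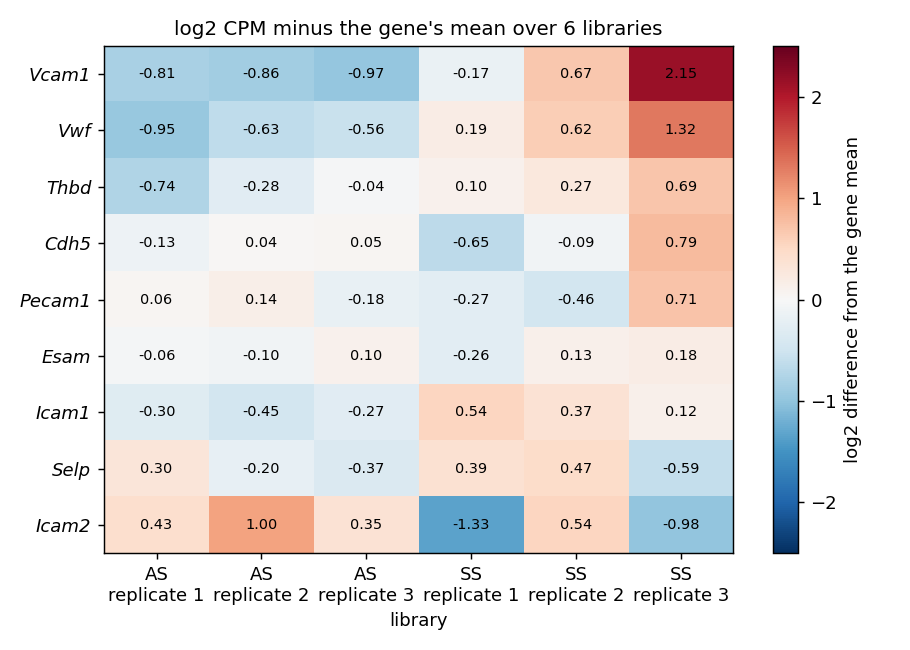
Log2 CPM of the 9 tested genes minus each gene's mean over the 6 libraries (colour and number per cell). SS replicate 3 stands out in Vcam1 (2.15), Vwf (1.32), Cdh5 (0.79), Pecam1 (0.71) and Thbd (0.69), and is negative in Selp (-0.59) and Icam2 (-0.98).

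By the same measure, each tested gene was set against 9442 other genes of mean CPM 5 or more. Closest to Vcam1 were Rrm2 (0.161), a subunit of the enzyme that makes DNA precursors, Col1a1 (0.231), a chain of collagen I, and the spindle gene Knstrn (0.261). Closest to Vwf were Cd36 (0.119), a scavenger receptor of endothelium, macrophages and platelets, Dkk3 (0.130) and Wipf1 (0.139). The nearest to Icam1 were Arhgap18 (0.0944), Apobec1 and Mier2, and to Thbd Micu2 (0.0950), Mtmr3 and Ikbkg. For the genes with little difference between groups the nearest were Arl2, Tspo and Leprotl1 for Selp, Zbtb7b, Uba3 and Ephb4 for Pecam1, Snhg3, St3gal5 and Pgam1 for Cdh5, and Ripk1, Arhgef7 and Rfc1 for Esam. The nearest to Icam2 were further off, Mrps27 (0.330), Nr1d1 (0.384) and Fkbp7 (0.387). The measure is not scaled to a gene's own spread over the libraries, so a nearly flat gene is close to many others. That spread (root-mean-square log2 difference from the gene's mean) was 0.85 for Icam2, 1.115 for Vcam1 and 0.15 for Esam. With 6 libraries and so many genes, close patterns are common, and none of the nearest genes of Vcam1 or Vwf was called (edgeR adjusted p of 0.0881 to 0.166 for Vcam1 and 0.0949 to 0.132 for Vwf).

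Blood cells carry the ligands of these adhesion molecules, mainly integrins, P-selectin glycoprotein ligand and the platelet receptor for von Willebrand factor. Of 17 such genes 12 were tested, and 1 rose, Itgax, the integrin alpha X chain of macrophages and dendritic cells, while 0 fell. Over all genes tested, edgeR called 0.911% higher and 0.0555% lower. The platelet receptor genes Gp1ba, Gp1bb, Gp5 and Gp9 were not among those tested. All 12 were fitted higher in SS, against 56.3% of all genes tested. At an unadjusted edgeR p under 0.05, 6 were higher and 0 lower, against 9.12% and 3.58%. DESeq2 called 2 higher and limma-voom 0. Itgax had 1.497, 1.77 and 1.96 CPM in AS replicates 1 to 3 and 9.50, 6.89 and 6.65 CPM in SS replicates 1 to 3. Its log2 difference was 2.12 (SE 0.423, edgeR adjusted p = 0.0479), and leaving out any single library ended the call (edgeR adjusted p of 0.0661 to 0.231). Those fits gave Itgax 1.94 to 2.22 and called 22 to 99 genes in all, beside 122 with all libraries. The median log2 difference of the 12 was 0.96, beside 0.08 over all genes tested.

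None of 15 tested junction and adhesion genes, 16 general endothelial genes, 15 sinusoidal genes and 11 genes of continuous or large vessels was called by edgeR, which called 0.967% of all genes tested. At an unadjusted p under 0.05 the higher ones numbered 1, 0, 1 and 1 and the lower ones 0, 0, 1 and 0, and limma-voom called 0 in each. DESeq2 called 1, 0, 2 and 1, with Cd34 counted in 2 lists, against 2.85% of all genes higher and 0.737% lower. The list medians were 0.10, 0.10, -0.16 and 0.64. Cd34, a sialomucin of capillary and large-vessel endothelium that stands in both the junction and the large-vessel list, had 1.84, 2.74 and 1.39 CPM in AS replicates 1 to 3 and 6.33, 7.32 and 11.7 CPM in SS replicates 1 to 3. Its log2 difference was 2.11 (SE 0.459, edgeR adjusted p = 0.0682, DESeq2 adjusted p = 0.00285). The sinusoidal gene Dnase1l3, a secreted DNase, averaged 86.7 ± 8.37 CPM over the AS and 47.1 ± 2.62 CPM over the SS libraries (SD, n = 3). Its log2 difference was -0.88 (SE 0.221, edgeR adjusted p = 0.114, DESeq2 adjusted p = 0.0107). Lyve1, a hyaluronan receptor of sinusoidal and lymphatic endothelium, ranged from 2.42 to 4.67 CPM over AS libraries and had 6.47, 6.74 and 40.5 CPM in SS replicates 1 to 3, a log2 difference of 2.48 that was 1.03 without SS replicate 3.

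Jam3, Sox17, Tek and Esm1, other endothelial genes, were not called either. Jam3, a junctional adhesion molecule, had a log2 difference of 1.07 (edgeR adjusted p = 0.489). Sox17, an arterial transcription factor, had 0.89 and Tek, the angiopoietin receptor, -0.54 (edgeR adjusted p = 0.496 and 0.508). Esm1, a proteoglycan of sprouting endothelium, had 2.62 with a wide SE of 1.32, and its values ran from 0.115 to 4.19 CPM in AS and from 0.132 to 18.9 CPM in SS.

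Among 18 endothelial genes of clotting and fibrinolysis, all tested, 2 rose and 0 fell, against 0.911% and 0.0555% of all genes tested. The list median was 0.80. At an unadjusted edgeR p under 0.05, 5 were higher and 0 lower, against 9.12% and 3.58%. DESeq2 called 5 higher, against 2.85%, and limma-voom called 0. Among the risen genes, Cd63, a tetraspanin of Weibel-Palade bodies that is also in lysosomes of many cells, had 15.4, 15.8 and 13.98 CPM in AS replicates 1 to 3 and 35.9, 67.95 and 48.2 CPM in SS replicates 1 to 3. Its log2 difference was 1.75 (SE 0.291, edgeR adjusted p = 0.0241), and the call ended without any 1 of AS replicates 1, 2 and 3 or SS replicate 2 (edgeR adjusted p of 0.0985 to 0.147). Over all genes, those fits called 22, 26, 38 and 26, beside 122 with all libraries. The log2 difference of Cd63 in them was 1.47 to 1.77.

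Genes of endothelial activation and NF-kB signalling, among them cytokines, their receptors and feedback inhibitors, were not called in 20 tested (edgeR 0, limma-voom 0, DESeq2 1), and 2 were higher and 0 lower at an unadjusted p under 0.05. Their median log2 difference was -0.05. Il1r1, the interleukin 1 receptor, had 14.7 to 22.9 CPM in AS and 67.6, 20.0 and 122.7 CPM in SS replicates 1 to 3, so the groups overlapped. Its log2 difference was 1.93 (SE 0.524, edgeR adjusted p = 0.146), 1.22 without SS replicate 3, and 2.36 without SS replicate 2, where it was called. Cx3cl1, a membrane-bound chemokine of activated endothelium, averaged 0.615 ± 0.585 CPM for AS and 2.30 ± 1.31 CPM for SS (log2 difference 1.99, edgeR adjusted p = 0.371).

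**Figure D5:**
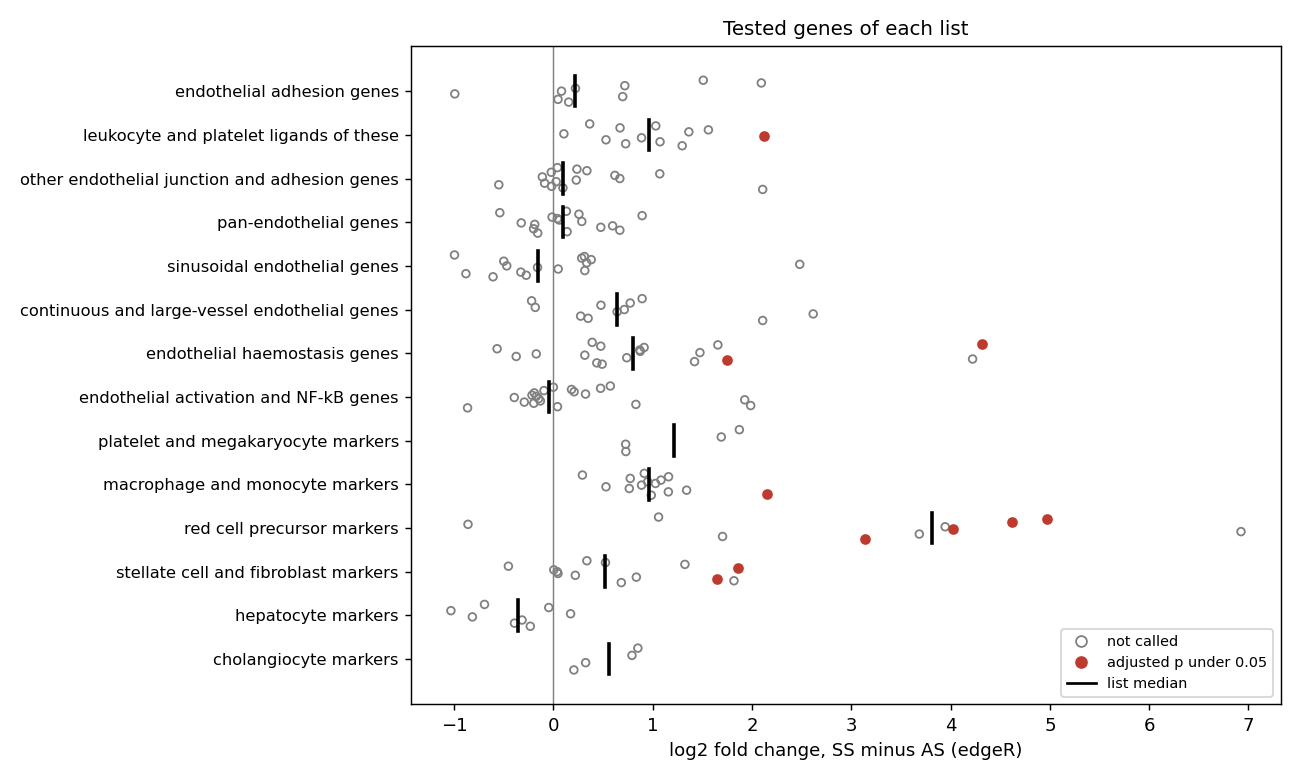
Fitted log2 difference between SS and AS of every tested gene of each list (open circle for not called, red for an edgeR adjusted p under 0.05, bar for the list median). The endothelial adhesion genes hold no called gene and have a median of 0.22, and 4 of the 10 called genes of the other lists are red cell precursor markers.

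Several of the 10 genes are also made outside endothelium: Vcam1 by stellate cells and by some macrophages, Vwf, Selp and Esam by megakaryocytes and platelets, Icam1 and Thbd by myeloid cells. Platelet and megakaryocyte markers summed to 27.4 to 30.8 CPM in AS and 35.8 to 71.3 CPM in SS. Of these 11 markers 4 were tested and 0 were called by edgeR (2 higher at an unadjusted p under 0.05, 1 called by DESeq2, 0 by limma-voom), and Gp6 had 0 reads in all 6 libraries. Pf4 and Ppbp, chemokines of platelet granules, had log2 differences of 1.69 and 1.87 (edgeR adjusted p = 0.143 and 0.333). Pf4 had 1.61 to 2.42 CPM in AS and 4.49, 7.90 and 6.50 CPM in SS replicates 1 to 3. For Ppbp the values were 0.35 to 2.09 CPM in AS and 2.11, 6.45 and 2.90 CPM in SS replicates 1 to 3.

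Stellate cell and fibroblast markers summed to 401 to 460 CPM in AS and 520 to 797 CPM in SS, with SS replicate 3 the highest. Of 13 tested, 2 rose and 0 fell, against 0.911% and 0.0555% of all genes tested. They were Lum, a collagen-binding proteoglycan (log2 difference 1.86, SE 0.276, edgeR adjusted p = 0.0134), and Col1a2, a chain of collagen I (1.65, SE 0.252, edgeR adjusted p = 0.0154). Both calls ended without any 1 of AS replicates 1, 2 and 3 or SS replicate 2 (edgeR adjusted p of 0.0559 to 0.140). The list median was 0.53, and 12 of the 13 were fitted higher in SS. The stellate cell genes Lrat, Des and Hand2 were near 0, at 0.0047, 0.0468 and 0.0383, and Ngfr was at -0.45. Macrophage and monocyte markers summed to 774.5 to 995.7 CPM in AS and 930.2 to 2439 CPM in SS, with SS replicate 2 the highest. Of 14 tested, 1 rose, against 0.911% of all genes tested. It was Ccr2, the chemokine receptor of recruited monocytes (log2 difference 2.15, SE 0.421, edgeR adjusted p = 0.0462). The call of Ccr2 ended when any single library was dropped (edgeR adjusted p of 0.0687 to 0.231). Its log2 difference in those fits was 2.01 to 2.33, and 22 to 99 genes were called in all, beside 122 with all libraries. All 14 were fitted higher in SS, with a median of 0.97. At an unadjusted edgeR p under 0.05, 9 were higher and 0 lower, against 9.12% and 3.58% of all genes tested.

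Red cell precursor markers summed to 46.4 to 64.0 CPM in AS and 252.8 to 497.4 CPM in SS. Of 10 tested, 4 rose and 0 fell, against 0.911% and 0.0555% of all genes tested. Among the risen were Alas2, the first enzyme of erythroid heme synthesis, and the anion exchanger Slc4a1. They held 266.7 and 126.8 of the 497.4 CPM in SS replicate 3. Of the 10, 9 were fitted higher in SS, while Klf1 was fitted lower (log2 difference -0.86, edgeR adjusted p = 0.491). Alas2 stayed called whichever library was dropped. The call of Slc4a1 ended without AS replicate 1 (edgeR adjusted p = 0.0549), and its log2 difference was 3.97 without SS replicate 3 beside 4.62 with all libraries. Of 8 hepatocyte markers and 4 cholangiocyte markers tested, edgeR called 0 (1 lower and 1 higher at an unadjusted p under 0.05). DESeq2 called 1 of these hepatocyte markers lower and 0 of the cholangiocyte markers, and limma-voom called 0. Cyp2e1 and Serpina1c of the hepatocyte list had log2 differences of -0.82 and -1.03 (edgeR adjusted p = 0.245 and 0.407), beside a list median of -0.35. The groups overlapped in Serpina1c, which was at -0.39 without AS replicate 1. Spp1 and Sox9 of the cholangiocyte list had 0.85 and 0.79 (edgeR adjusted p = 0.293 and 0.599), beside a list median of 0.56. The part of these other cell types in the values of Vcam1, Vwf, Icam1 and Thbd was not tested.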

How the data were processed

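The submitters' processing notes name HISAT2, HTSeq and the mm10 build. The authors deposited raw counts, 1 table per library. Versions, annotation, strand setting and filters are not given in the sources used here. The counter's lines for records not assigned to a gene (outside annotated genes: 40.7% to 42.2% of records in AS, 43.0% to 53.9% in SS) stayed out of library sizes and tests.

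The filterByExpr function (count 10, total 15) kept 12622 of 24421 genes. The test of SS against AS used edgeR 4.0.16 under R 4.3.3 (TMM factors, robust quasi-likelihood fit, two-sided F-test, no covariate), adjusted by the Benjamini-Hochberg method. Standard errors were derived from the F statistic. Log2 CPM used a prior count of 2. Alternatives included DESeq2 1.42.0 and limma-voom (limma 3.58.1), other scalings and filters, and libraries left out. TPM used GENCODE exon lengths, which matched 23334 symbols. Cd99, Nectin2 and Ahsp were not matched in the tables. Counting intervals and limits cover counting error only, because reads are not unique molecules.

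The genes and lists were chosen with earlier results of these data known. All 10 genes were named, and from each other list the called genes (up to 4) or otherwise the 2 of lowest p, plus the 3 genes nearest in pattern to each tested gene. Some genes that this rule names are not reported here.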

Additional observations from a re-analysis of the deposited data

How the results depend on the processing

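Of the 17 alternatives, all kept the direction of Vcam1, Vwf, Icam1, Thbd, Selp and Icam2, whose log2 differences ranged from 1.19 to 2.48, 1.03 to 1.80, 0.59 to 0.97, 0.34 to 0.99, 0.01 to 0.73 and -1.89 to -0.68. The direction of the junction genes changed: Pecam1 was -0.0093 with a replicate block, -0.0131 without AS replicate 3, -0.38 without SS replicate 3 and -0.35 when AS replicate 1 was dropped along with SS replicate 3; Cdh5 was -0.34 and -0.38 in the last pair of settings; and Esam was -0.0115 without AS replicate 2, -0.0195 without SS replicate 2, -0.0412 without SS replicate 3 and -0.0555 with that pair dropped. Their highest values with a single library left out were 0.29 for Pecam1, 0.42 for Cdh5 and 0.17 for Esam. The number of adhesion genes called higher was 0 in the main analysis and ranged from 0 to 1 with single libraries left out (1 without SS replicate 1, Vcam1). It was 1 with no filter (Vwf), 1 with that pair of libraries dropped (Vcam1), 2 with DESeq2 and 2 with a replicate block (Vcam1 and Vwf, where 2.91% of all genes were called higher). The number called lower was 0 in every alternative. The median of the 9 was 0.49 with library totals alone, where the median of all genes rose from 0.08 to 0.36. Esam lay below the median of all genes both there (0.32) and in the main analysis (0.05). The median of the 9 ranged from 0.16 to 0.49 with single libraries left out. The 122 calls over all genes became 217 with no filter, 460 with a replicate block, 453 with DESeq2, 31 with limma-voom, 31 with AS replicates 2 and 3 summed, 662 with the same pair of libraries dropped, and 22 to 99 with single libraries left out. Of these calls 94.3% were higher in SS, against 79.8% with a replicate block, 79.5% with DESeq2 and 52.3% with both left out. The 10 calls over all other lists became 22 with a replicate block, 24 with DESeq2, 4 with limma-voom, 3 with AS replicates 2 and 3 summed, 23 with both libraries left out, and ranged from 2 to 10 with single libraries left out. The cause of these shifts was not tested, except that fewer libraries enter some fits. The replicate numbers are shared in the labels, but the deviations of same-numbered libraries correlated at 0.0497, -0.12 and 0.193, and AS replicate 1 correlated best with SS replicate 2 (0.241), so the numbers were not taken as pairs. Depth limits Sele and Icam2 most, at 0 to 6 and 9 to 67 reads per library.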
